A study of Homo sapiens with 3 samples.

Results

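FGF13 and the fibroblast growth factor (FGF) genes read here are FGF13, the ligands FGF2, FGF19 and FGF21, the receptors FGFR1, FGFR2, FGFR3, FGFR4 and FGFRL1, and the co-receptor KLB. Every probe set annotated to 1 of these genes alone was taken, which gave 33 probe sets for the 10 genes, out of 54675 probe sets in all. The set was chosen from results of these same arrays, in which the low FGF13 signals of both sublines were already known, and no threshold on a value was recorded for the other 9 genes. The values are therefore given as a description. RNA came from 3 human hepatocellular carcinoma lines that were untreated when harvested. These were MHCC97L/DoxR, a doxorubicin-resistant subline, MHCC97L/CisR, a cisplatin-resistant subline, and MHCC97Low, the metastatic hepatoma line from which both were derived. Each line was measured once, as 1 RNA preparation on 1 Affymetrix U133 Plus 2.0 array, and each drug was represented by a single resistant subline that no label describes as a clone or a pool. With 1 array a group there was no spread between cultures to test a difference against, and no p-value was computed.

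FGFs bind receptor tyrosine kinases on the cell surface, with heparan sulphate as a cofactor, and the activated receptors signal through the adaptor FRS2 to the RAS-MAPK pathway. Paracrine ligands such as FGF2 act near their source, whereas FGF19 and FGF21 are endocrine and need the co-receptor beta-klotho, encoded by KLB. In liver, FGF19 acts through FGFR4 and KLB to repress bile acid synthesis. FGF13 is different from these: it belongs to the FGF homologous factors, which are not secreted in the classical way, stay inside the cell and are best known for binding voltage-gated sodium channels and microtubules.

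The values were MAS5 signals, a linear brightness per probe set in arbitrary units. Dim MAS5 values cannot be ranked reliably, so values under 76.9, the median over the pooled arrays, were treated as equal to this floor. A probe set was compared between 2 arrays when either value exceeded the floor, and a difference of 2-fold or more was called. Where the dimmer value did not exceed the floor, the fold is a lower bound and is written as "at least". The median signal was between 73.3 and 79.2 on the 3 arrays, and 49.2% to 50.5% of all probe sets lay above the floor. Of the 10 hepatocyte markers, 7 were above the floor in the doxorubicin-resistant, 8 in the cisplatin-resistant and 8 in the parental array. Their summed signals of 66197, 60563 and 56702 came mostly from the keratins KRT8 and KRT18, and the other 8 markers summed to 4492, 899 and 3944. In the cisplatin-resistant array 5 of 9 compared markers were called lower than parental and none higher, with a median log2 difference of -1.40. These were ALB (albumin), by at least 20.1-fold, AFP by 4.53-fold, FGA by 3.60-fold, SERPINA1 by 3.09-fold and TTR by 2.65-fold. Each fold is that of the brightest probe set of the gene. Of the other compared probe sets, those of ALB were at -2.34 and -1.40 on the log2 scale and that of SERPINA1 at -1.76. The other compared FGA probe set was at most -0.43, a bound, and was not called. In the doxorubicin-resistant array ALB was called higher and FGA lower than parental among 8 compared. The ALB call was just past 2-fold, at a log2 difference of 1.01. The other compared probe sets were not called there, at 0.18 and 0.95 for ALB and at most -0.43 for FGA. Against the cisplatin-resistant array ALB, AFP, TTR and SERPINA1 were called higher and FGA lower among 9. Over all compared genes, 5.41% were called in the cisplatin-resistant against the parental array, with a median log2 difference of 0.02. The share was 5.72% in the doxorubicin-resistant against the parental array and 6.36% between the sublines. The part that the lower hepatocyte markers of the cisplatin-resistant array have in the FGF differences was not tested. The 12 markers of leukocytes, endothelium, fibroblasts and red cells that were on the array summed to 1471, 1767 and 1869, and 4, 5 and 3 of them were above the floor in the same order of arrays.

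Of the 33 probe sets, 13 were above the floor on at least 1 array, 9 of them on all 3, and they covered 7 of the 10 genes. The other 20 probe sets lay under the floor on every array, and among them were all probe sets of FGF19, FGF21 and KLB. In the doxorubicin-resistant against the parental array, 1 of 13 compared probe sets was at least 2-fold higher (FGF2) and 1 at least 2-fold lower (FGF13), where 5.1% of all 23768 compared probe sets with a single gene name were called in either direction. In the cisplatin-resistant against the parental array, 2 of 12 were lower (FGF13 and FGF2) and none higher, where 4.93% of 23999 were called. In the doxorubicin-resistant against the cisplatin-resistant array, 4 of 12 were higher (both FGF2 probe sets, FGFR3 and FGFR4) and none lower, where 5.59% of 23816 were called and 2.75% were called higher. The median log2 difference of the compared probe sets was 0.16, -0.20 and 0.37 in these 3 comparisons, against -0.01, 0.01 and -0.02 over all compared probe sets. The comparisons share arrays, so these 3 sets of counts are not independent. FGF13 was compared only through the parental array and the FGFR1 probe set 210973_s_at only through the doxorubicin-resistant array. The FGFR1 probe sets 207937_x_at and 226705_at were under the floor in the cisplatin-resistant array. They were compared with it only through the parental or the doxorubicin-resistant array. Each such probe set could only be higher in the array that passed the floor. The filter therefore partly set the directions and medians above.

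**Figure D1:**
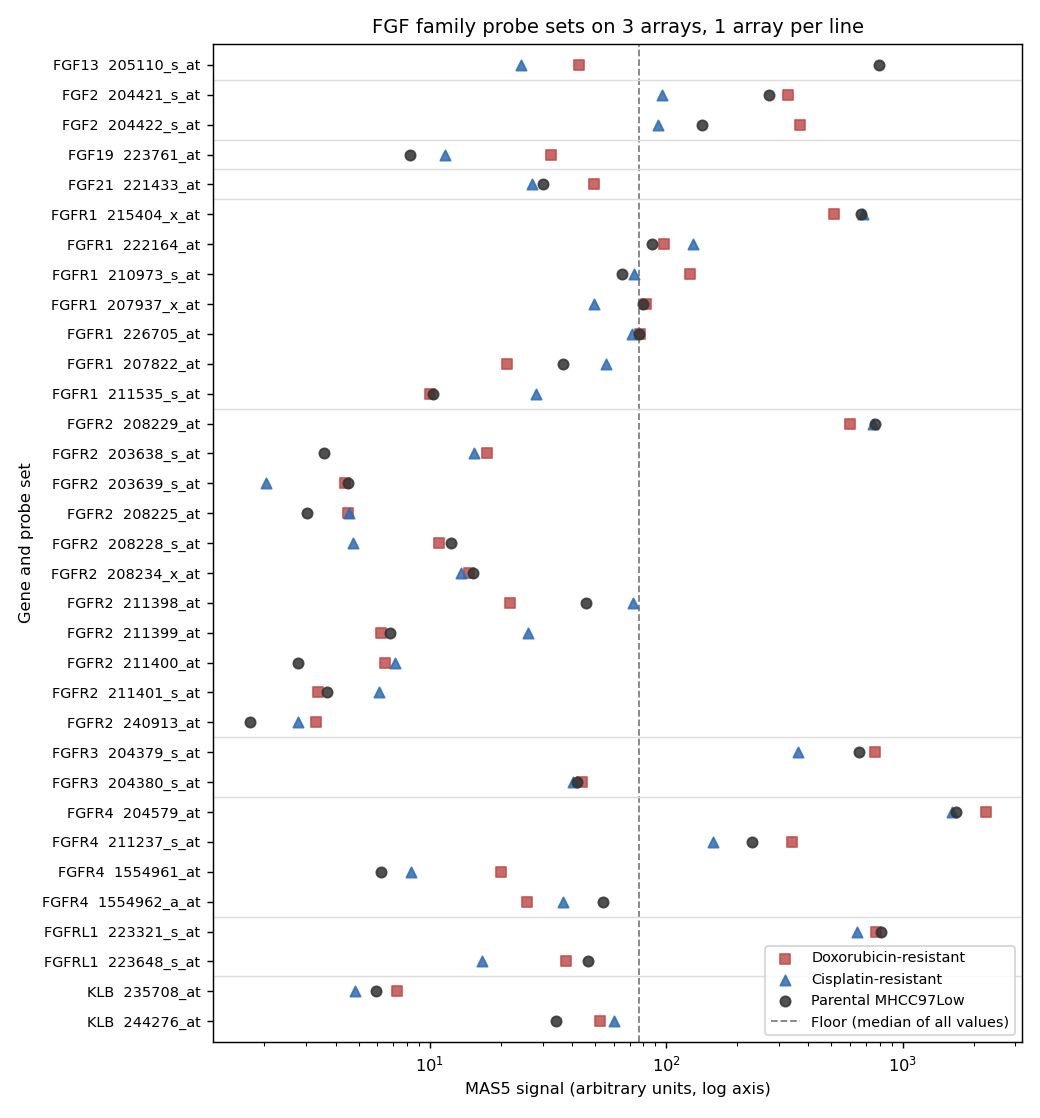
MAS5 signal (horizontal log axis, arbitrary units) of all 33 probe sets of the 10 genes, with 1 point for each array and a dashed line at the floor of 76.9. FGF13 is right of the line in the parental array alone, both FGF2 probe sets are lowest in the cisplatin-resistant array, and FGF19, FGF21 and KLB are left of the line on all 3 arrays.

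FGF13 had the largest difference from parental of the 10 genes in both sublines. Its single probe set, 205110_s_at, read 43.0 signal units in the doxorubicin-resistant array and 24.4 in the cisplatin-resistant array, against 799 in the parental array. The transcript was thus well above the floor in the parental line and under it in both sublines. The bound was at least 10.4-fold lower for each subline, a log2 difference of at most -3.38, and the equal bounds only reflect the shared floor and the shared parental array. For FGF13 as for every gene here, fewer cells carrying the transcript and less transcript per cell cannot be told apart in bulk RNA. The size of the bound followed the floor: it was -4.22 and -5.03 on the log2 scale with a floor at the 25th percentile of all signals and -0.86 in both, under 2-fold, with a floor at the 75th. FGF13 has no other probe set under its name on the array against which the difference could be read.

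FGF13 lies on chromosome X, is transcribed from alternative first exons, and RefSeq gives windows for a pair of its starts. Of the 10 genes, FGF13 alone was above the floor in the parental line and under it in both sublines, and its windows are printed for this reason. The probe set does not tell which start the parental line used. Both windows (build GRCh38.p14, minus strand, 250 bases before to 50 after the start, printed 5′ to 3′) carry the matches of 7 searched motifs in capitals, on either strand.
FGF13, start in chrX:139204974-139205273: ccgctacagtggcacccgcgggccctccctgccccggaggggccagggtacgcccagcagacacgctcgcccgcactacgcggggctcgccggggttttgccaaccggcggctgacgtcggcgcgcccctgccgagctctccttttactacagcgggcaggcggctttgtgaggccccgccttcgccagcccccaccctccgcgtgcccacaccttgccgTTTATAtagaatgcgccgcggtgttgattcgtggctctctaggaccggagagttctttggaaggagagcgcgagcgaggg
FGF13, start in chrX:138739304-138739603: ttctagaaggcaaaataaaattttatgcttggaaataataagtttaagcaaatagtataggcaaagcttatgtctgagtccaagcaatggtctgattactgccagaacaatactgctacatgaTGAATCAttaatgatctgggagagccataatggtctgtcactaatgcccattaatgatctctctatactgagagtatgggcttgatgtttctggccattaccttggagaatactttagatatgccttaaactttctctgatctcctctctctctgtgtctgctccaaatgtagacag
The search for the TATA box, which positions the polymerase at many tissue-specific promoters, used the letters TATAAA. For the CCAAT box the letters of its name were used. The GC box, bound by SP1 and related factors, was searched as GGGCGG. The AP-1 element, bound by FOS and JUN proteins, was searched as TGANTCA. The cAMP response element, bound by CREB proteins, was searched as TGACGTCA. The amino acid response element, bound by ATF4, was searched as TGATGNAA. The E-box, bound by basic helix-loop-helix proteins such as MYC, was searched as CACGTG. The first window held 34 CpG dinucleotides and 1 TATA box match, in reverse orientation from position -30, and the second held 0 CpG and 1 AP-1 match, from position -127. The median over 35116 RefSeq windows was 14 CpG, and 11.5% of these windows held a TATA box match and 7.71% an AP-1 match. The other motifs, of which neither window held one, were found in 34.6% (CCAAT box), 45.0% (GC box), 1.85% (cAMP response element), 3.62% (amino acid response element) and 7.26% (E-box) of them. No match overlapped another motif. A match describes the letters in the window and is not a measured binding site.

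The genes around FGF13, each read by its brightest probe set, were also mostly below parental, by less. Among the 50 compared genes nearest to FGF13 in chromosome order, 25 on each side, 48 were below the parental value in the doxorubicin-resistant and 43 in the cisplatin-resistant array, with median log2 differences of -0.56 and -0.51. Over all compared genes, 49.6% were below the parental value in the doxorubicin-resistant and 47.8% in the cisplatin-resistant array. No neighbour reached the bound of FGF13, and the lowest of them were at -2.86 and -2.60. With the median of the 14 nearest compared genes subtracted, which was -0.53 in the doxorubicin-resistant and -0.45 in the cisplatin-resistant array, FGF13 was at most -2.85 and -2.93. Of the 5 compared genes on each side, ARHGEF6, a guanine nucleotide exchange factor and the nearest on one side, differed from parental by 0.03 and 0.44 in the doxorubicin-resistant and cisplatin-resistant arrays. MCF2, another exchange factor and the nearest on the other side, had signals of 25.9, 32.1 and 105 in the doxorubicin-resistant, cisplatin-resistant and parental arrays, a log2 difference of at most -0.45 in each subline. HTATSF1, MAP7D3, MMGT1 and ZNF449 lay between -0.24 and -0.78 in both sublines. MAGEC1 and MAGEC2, cancer-testis antigens, were at -1.64 and -0.61 in the doxorubicin-resistant and at -1.28 and -2.60 in the cisplatin-resistant array, the first value being a bound. SPANXB1, which has near-identical copies that its probes may share, was at -0.93 (a bound) and 1.87, and the ubiquitin-conjugating enzyme relative UBE2NL at -1.11 and 0.14, in the doxorubicin-resistant and cisplatin-resistant arrays. Lower values were not confined to the genes around FGF13. The 14 compared genes nearest to FGF16, SPRY3 and IKBKG, also on chromosome X, had medians of -0.40, -0.40 and -0.49 in the doxorubicin-resistant array. In the cisplatin-resistant array these medians were -0.26, -0.24 and -0.27. The part that the chromosomal position of FGF13 has in its difference was not tested.

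**Figure D2:**
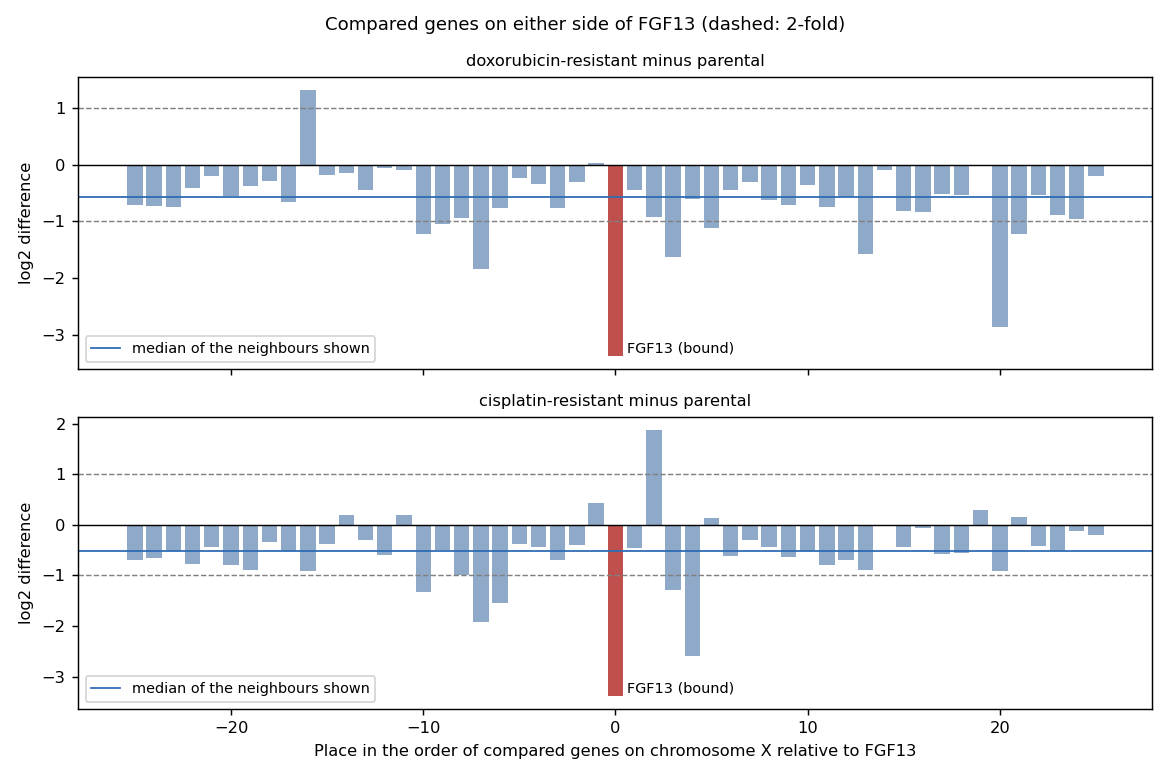
log2 difference from parental (vertical axis) of the 25 compared genes on each side of FGF13 in gene order on chromosome X (horizontal axis), in the doxorubicin-resistant (top) and cisplatin-resistant (bottom) array. FGF13, in red and limited by the floor, is the lowest bar in both, while the neighbours have medians of -0.56 and -0.51, drawn as blue lines.

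The 5 genes whose pair of differences from parental lay nearest to that of FGF13 were NRIP1, FGG, ABTB3, SPIRE1 and TF, at Euclidean distances of 0.04, 0.47, 0.74, 0.90 and 1.04 on the log2 scale over the 2 subline comparisons. NRIP1, a nuclear receptor corepressor, had signals of 21.1, 10.4 and 784 in the doxorubicin-resistant, cisplatin-resistant and parental arrays, and FGG, a fibrinogen chain, had 25.6, 57.8 and 1004. Both were, like FGF13, under the floor in both sublines, so their closeness is set by their parental signals. ABTB3 had 213, 178 and 1420, and SPIRE1, an actin nucleator, had 193, 149 and 1155. TF, the iron carrier transferrin, had 404, 234 and 4925. These 3 remained above the floor in both sublines. None of the 5 lies on chromosome X. The likeness rests on 3 arrays and on a shared parental array.

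FGF2 was the only ligand of the 10 genes above the floor on all 3 arrays. FGF2, basic FGF, is a paracrine growth factor that is exported without a signal peptide. Probe set 204421_s_at had a signal of 326 in the doxorubicin-resistant, 95.9 in the cisplatin-resistant and 272 in the parental array. Probe set 204422_s_at had 368, 92.2 and 141 in the same order. Both probe sets were highest in the doxorubicin-resistant and lowest in the cisplatin-resistant array, and they differed in where the parental line fell between these. Against parental, the cisplatin-resistant array was 2.83-fold lower by the first probe set and 1.53-fold lower by the second. The doxorubicin-resistant array was 1.20-fold higher by the first and 2.60-fold higher by the second. The doxorubicin-resistant against the cisplatin-resistant array was the comparison in which both probe sets passed 2-fold, at 3.40-fold and 3.99-fold higher. In the cisplatin-resistant array both signals were close to the floor. With a floor at the 75th percentile neither probe set of FGF2 could be compared.

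The neighbours of FGF2 on chromosome 4 did not share its low value in the cisplatin-resistant array. The 14 compared genes nearest to it differed from parental by a median of 0.10 on the log2 scale in the doxorubicin-resistant array and 0.19 in the cisplatin-resistant array. The nearest, NUDT6, named here after its values were seen, is transcribed from the opposite strand and overlaps FGF2. Its brighter probe set had 689 in the doxorubicin-resistant, 1037 in the cisplatin-resistant and 620 in the parental array, so NUDT6 was highest in the array in which FGF2 was lowest, 1.67-fold above parental.

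The RefSeq window of FGF2 is printed because FGF2 is the member that separated both sublines by both probe sets, and that of FGFR3 because it is the receptor whose only measured probe set passed 2-fold in the same comparison. Both are on chromosome 4, plus strand, build GRCh38.p14, with motif matches in capitals as above.
FGF2, chr4:122826581-122826880: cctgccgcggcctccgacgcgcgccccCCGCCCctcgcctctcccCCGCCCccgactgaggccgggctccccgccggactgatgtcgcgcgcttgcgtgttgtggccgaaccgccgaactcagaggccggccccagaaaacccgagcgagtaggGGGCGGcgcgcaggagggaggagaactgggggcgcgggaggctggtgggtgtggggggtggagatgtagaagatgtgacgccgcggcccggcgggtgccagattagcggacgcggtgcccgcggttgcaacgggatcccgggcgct
FGFR3, chr4:1793043-1793342: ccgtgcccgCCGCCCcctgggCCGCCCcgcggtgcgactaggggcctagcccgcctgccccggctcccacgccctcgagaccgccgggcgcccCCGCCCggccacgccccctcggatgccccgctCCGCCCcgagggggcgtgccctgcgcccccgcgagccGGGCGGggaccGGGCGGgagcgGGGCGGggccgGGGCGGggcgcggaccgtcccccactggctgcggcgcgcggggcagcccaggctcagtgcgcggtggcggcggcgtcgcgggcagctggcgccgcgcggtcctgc
FGF2 held 41 CpG and 3 GC box matches, and FGFR3 held 51 CpG and 8 GC box matches. Of the FGFR3 matches, those from positions -88, -77, -66 and -55 stand on the same strand at equal spacing. A GC box match was found in 45.0% of all windows, so its presence alone does not set these genes apart.

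The endocrine ligands and their co-receptor were not detected above the floor. FGF19 (223761_at) had signals of 32.5, 11.6 and 8.25 in the doxorubicin-resistant, cisplatin-resistant and parental arrays, and FGF21 (221433_at) had 49.4, 27.02 and 30.1. KLB had 52.7, 60.3 and 34.1 by probe set 244276_at and 7.28, 4.81 and 5.95 by 235708_at. All of these are below 76.9, so no fold is given, and a level below the floor is not an absence of transcript. Across the whole family of 22 FGF genes, all on the array, 6 had a probe set above the floor on at least 1 array. FGF2 and FGF11 were above it in the doxorubicin-resistant array. FGF2, FGF6, FGF11 and FGF22 were above it in the cisplatin-resistant array, and FGF2, FGF4, FGF6 and FGF13 in the parental array. FGF4, FGF6 and FGF22 never exceeded 118. FGF11, an FGF homologous factor as FGF13 is, had 104 and 175 by its brighter probe set in the doxorubicin-resistant and cisplatin-resistant arrays. The parental array had 41.6 by that probe set. By it FGF11 was thus above the floor where FGF13 was under it. It was at least 1.35-fold above parental in the doxorubicin-resistant and at least 2.28-fold above it in the cisplatin-resistant array. The other of the 2 FGF11 probe sets was under the floor on all 3 arrays, so the contrast with FGF13 rests on 1 probe set. The remaining homologous factors, FGF12 and FGF14, were under the floor on all 3 arrays.

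Of the 26 probe sets of the receptors, 10 were above the floor on some array. FGFR4, the main hepatocyte FGF receptor, had the signals 2248, 1617 and 1682 by probe set 204579_at and 341, 158 and 231 by 211237_s_at, in the doxorubicin-resistant, cisplatin-resistant and parental arrays. By both probe sets FGFR4 was highest in the doxorubicin-resistant array. The difference of that array from parental was within 2-fold, with log2 differences of 0.42 and 0.56. Against the cisplatin-resistant array FGFR4 was 1.39-fold higher by the brighter probe set and 2.17-fold higher by the dimmer one. The other 2 of its 4 probe sets had signals of 6.21 to 53.9.

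FGFR3 had signals of 765 in the doxorubicin-resistant, 362 in the cisplatin-resistant and 657 in the parental array by probe set 204379_s_at. It was lowest in the cisplatin-resistant array, 1.81-fold below parental, and 2.11-fold higher in the doxorubicin-resistant than in the cisplatin-resistant array. That call was lost with the floor at the 75th percentile, where the log2 difference was 0.80, and with the median over both of its probe sets, where it was 0.54. The other FGFR3 probe set had 44.0, 40.5 and 41.9. The median over the 14 compared genes nearest to FGFR3 was -0.14 in the same comparison.

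FGFR1 was represented by 7 probe sets, 5 of which were above the floor on some array. The brightest, 215404_x_at, of a type whose probes can match other transcripts, had 511, 678 and 665 in the doxorubicin-resistant, cisplatin-resistant and parental arrays. Its log2 difference from parental was -0.38 in the doxorubicin-resistant and 0.03 in the cisplatin-resistant array. The next, 222164_at, had 97.8, 130 and 87.4. Probe set 210973_s_at had 127 in the doxorubicin-resistant array and was under the floor on the others, at 73.1 and 64.8. The directions of these probe sets differed, none of the 7 passed 2-fold in any of the 3 comparisons, and the median over the probe sets turned the FGFR1 log2 difference of the doxorubicin-resistant array from parental to 0.10.

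FGFR2 was above the floor by 1 of 11 probe sets. That probe set, 208229_at, had 600 in the doxorubicin-resistant, 747 in the cisplatin-resistant and 768 in the parental array, with log2 differences from parental of -0.36 and -0.04. The remaining 10 probe sets of FGFR2 had signals of 1.73 to 72.1 on the 3 arrays. The level of FGFR2 in these lines therefore depends on which probe set is read. FGFRL1, a receptor without a kinase domain, had 769, 644 and 812 by probe set 223321_s_at, and its second probe set lay between 16.6 and 46.5. Its log2 differences from parental were -0.08 in the doxorubicin-resistant and -0.33 in the cisplatin-resistant array, within the SD of all gene differences of 0.37 estimated from the median absolute deviation in each comparison.

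**Figure D3:**
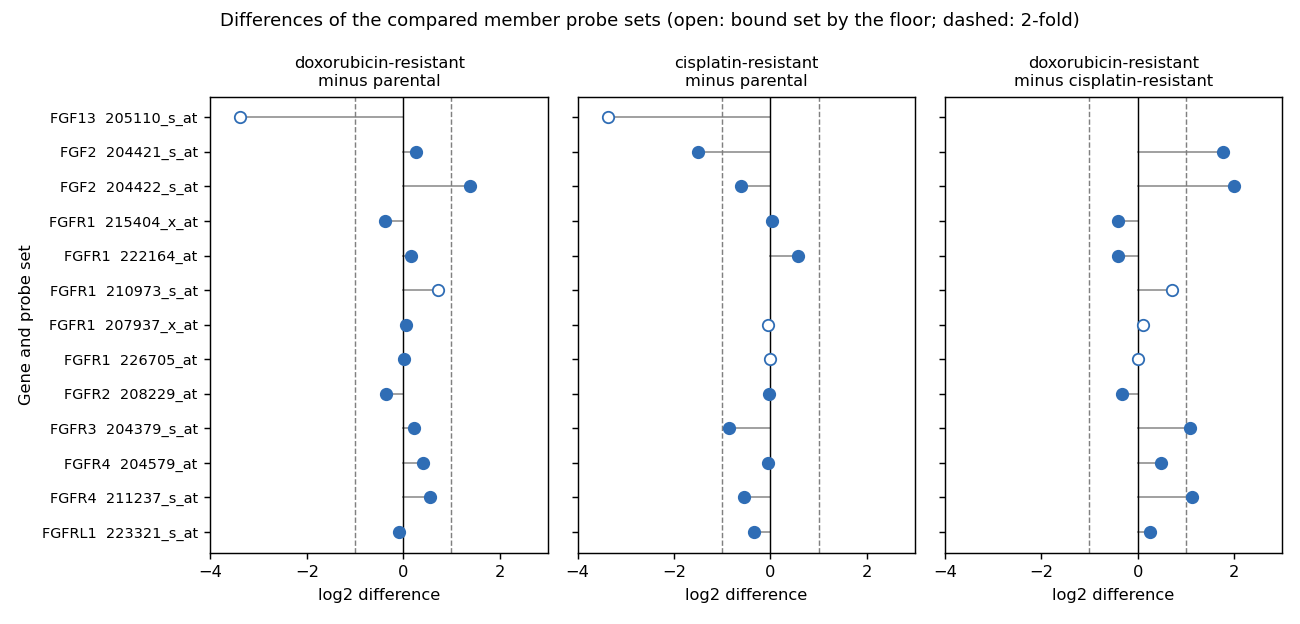
log2 difference (horizontal axis) of the 13 probe sets of the 10 genes that could be compared, in the doxorubicin-resistant minus parental, cisplatin-resistant minus parental and doxorubicin-resistant minus cisplatin-resistant comparisons. Open points are bounds set by the floor and dashed lines mark 2-fold; FGF13 is at most -3.38 in the first 2 panels and both FGF2 points are past 1 in the third.

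Further genes of the pathway were read from 11 lists of 123 genes, of which 116 were on the array under a single name. In the doxorubicin-resistant against the parental array, 7 of 74 compared genes were at least 2-fold higher and 2 lower, where 5.72% of all 12605 genes were called in either direction. In the cisplatin-resistant against the parental array, 2 of 75 were higher and 3 lower, where 5.41% of 12710 were called. In the doxorubicin-resistant against the cisplatin-resistant array, 6 of 75 were higher and 1 lower, where 6.36% of 12604 were called. The medians were 0.02, -0.08 and 0.09, against 0.00, 0.02 and -0.01 over all compared genes.

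Most of the receptor adaptors, feedback inhibitors and target genes that were read were detected and within 2-fold. RAS and the kinases below it were in none of the lists. All 12 receptor adaptors on the array were above the floor in the parental line, and none of them was called in any comparison. FRS2, the adaptor named above and 1 of the 13 in the list, had no probe set under its name alone and could not be read. FRS3, also in the list, was close to the floor, at 94.0, 83.6 and 91.6 in the doxorubicin-resistant, cisplatin-resistant and parental arrays. GRB2, the adaptor that links receptors to RAS activation, had 5547, 5369 and 6216 in the doxorubicin-resistant, cisplatin-resistant and parental arrays, and PTPN11, the phosphatase SHP2, had 6573, 6436 and 6724. The exchange factor SOS1 had 2948, 2054 and 1716, and its log2 difference from parental was 0.78 in the doxorubicin-resistant and 0.26 in the cisplatin-resistant array by its brightest probe set. Its 3 other compared probe sets lay between -0.53 and 0.16 and between -0.63 and 0.33, so they differed in direction. Of 16 compared feedback inhibitors and target genes, ETV1 alone was called against parental. That count is near the shares over all genes, 5.72% in the doxorubicin-resistant and 5.41% in the cisplatin-resistant array. ETV1, an ETS transcription factor, had 296, 537 and 112, which was 2.64-fold higher in the doxorubicin-resistant and 4.79-fold higher in the cisplatin-resistant array by its brightest probe set. The 3 other compared ETV1 probe sets were also above parental, by less, with log2 differences of 0.29 to 1.02 in the doxorubicin-resistant and 0.78 to 1.52 in the cisplatin-resistant array. By their brightest probe sets, its relatives ETV4 and ETV5 had log2 differences of 0.46 and 0.42 in the doxorubicin-resistant and 0.36 and -0.01 in the cisplatin-resistant array. DUSP6, the phosphatase that switches off ERK, had 5616, 3887 and 5368, and the feedback inhibitors SPRY2 and SPRY4 had 310, 404 and 409, and 918, 1013 and 1075. IL17RD, a membrane inhibitor of FGF signalling, was close under the threshold in the cisplatin-resistant array, at 151 against 75.4 in parental and at least 1.97-fold higher.

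Genes that present or bind FGFs were called singly. FLRT1, a membrane protein that associates with FGF receptors, had 194, 69.2 and 87.5 in the doxorubicin-resistant, cisplatin-resistant and parental arrays, 2.21-fold above parental in the doxorubicin-resistant array. FGFBP3, a carrier of FGFs, had 104, 72.9 and 160, and the cisplatin-resistant array was below parental by at least 2.08-fold. Of 19 compared genes of heparan sulphate synthesis and its carriers, 1 was called in each subline against parental. This is near the shares over all genes, 5.72% in the doxorubicin-resistant and 5.41% in the cisplatin-resistant array. HS3ST1, a 3-O-sulphotransferase, had 134 in the doxorubicin-resistant, 313 in the cisplatin-resistant and 363 in the parental array, 2.70-fold lower than parental in the doxorubicin-resistant array. The syndecan SDC3 had 122, 26.2 and 167, and the cisplatin-resistant array was below parental by at least 2.17-fold. EXT2, a polymerase of the heparan sulphate chain, had 2468, 1149 and 1705, 2.15-fold higher in the doxorubicin-resistant than in the cisplatin-resistant array, and its other probe set was under the threshold, at a log2 difference of 0.79. Of the genes that regulate receptor splicing, 4 were compared and none was called, and the epithelial splicing factor ESRP1 was under the floor on all 3 arrays.

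Of 10 genes of bile acid handling on the array, a function that FGF19 controls in liver, 5 could be compared between the doxorubicin-resistant and the parental array and 4 of these were called. SLC51A and NR0B2 could be compared only because the doxorubicin-resistant signal was above the floor, so the filter itself raised that share, and nothing is read from it. SLC51A and SLC51B encode the partner subunits of the basolateral bile acid exporter, and they differed in direction. SLC51A had 324, 109 and 5.05 in the doxorubicin-resistant, cisplatin-resistant and parental arrays, at least 4.21-fold above parental in the doxorubicin-resistant array. SLC51B had 876, 647 and 2151, 2.46-fold lower than parental in the doxorubicin-resistant and 3.33-fold lower in the cisplatin-resistant array. NR0B2, the repressor SHP, had 157, 56.5 and 32.5, at least 2.04-fold above parental in the doxorubicin-resistant array, and the nuclear receptor NR5A2 had 373, 226 and 159, 2.35-fold above it by its brightest probe set. The other compared NR5A2 probe set was not called, at a log2 difference of 0.38. The bile acid synthesis enzymes CYP7A1 and CYP8B1, which FGF19 is known to repress, were under the floor on all 3 arrays. Their signals were 1.79, 16.7 and 13.8, and 38.0, 31.7 and 65.1. Of the other enzymes in the list, CYP7B1 was also under the floor on all 3 arrays. CYP27A1 was above it, at 1052, 1541 and 1071 in the doxorubicin-resistant, cisplatin-resistant and parental arrays. NR1H4 and HNF4A, also in the list, had no probe set under their names alone and could not be read.

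Among 7 compared regulators of FGF21, 2 were called in the doxorubicin-resistant array and none in the cisplatin-resistant array against parental. The shares called over all genes were 5.72% and 5.41%. DDIT3, a stress-induced transcription factor, had 5136 in the doxorubicin-resistant, 1520 in the cisplatin-resistant and 1867 in the parental array, 2.75-fold above parental in the doxorubicin-resistant array. MLXIPL, the carbohydrate response factor ChREBP, had 296, 93.9 and 107, 2.77-fold above it. The compared genes around MLXIPL were higher too, with a median log2 difference from parental of 1.18 against 1.47 for MLXIPL, and with that median subtracted MLXIPL was at 0.29 and no longer called. ATF4, a known activator of FGF21, had 16556, 11711 and 13667, within 2-fold. FGF21 itself lay under the floor on all arrays, as given above. The sodium channels that FGF13 is known to bind were not detected in these lines: of 13 genes on the array in that list, the 2 compared were the cytoplasmic partners MAPK8IP2 and IKBKG, and every channel subunit read was under the floor on all 3 arrays.

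**Figure D4:**
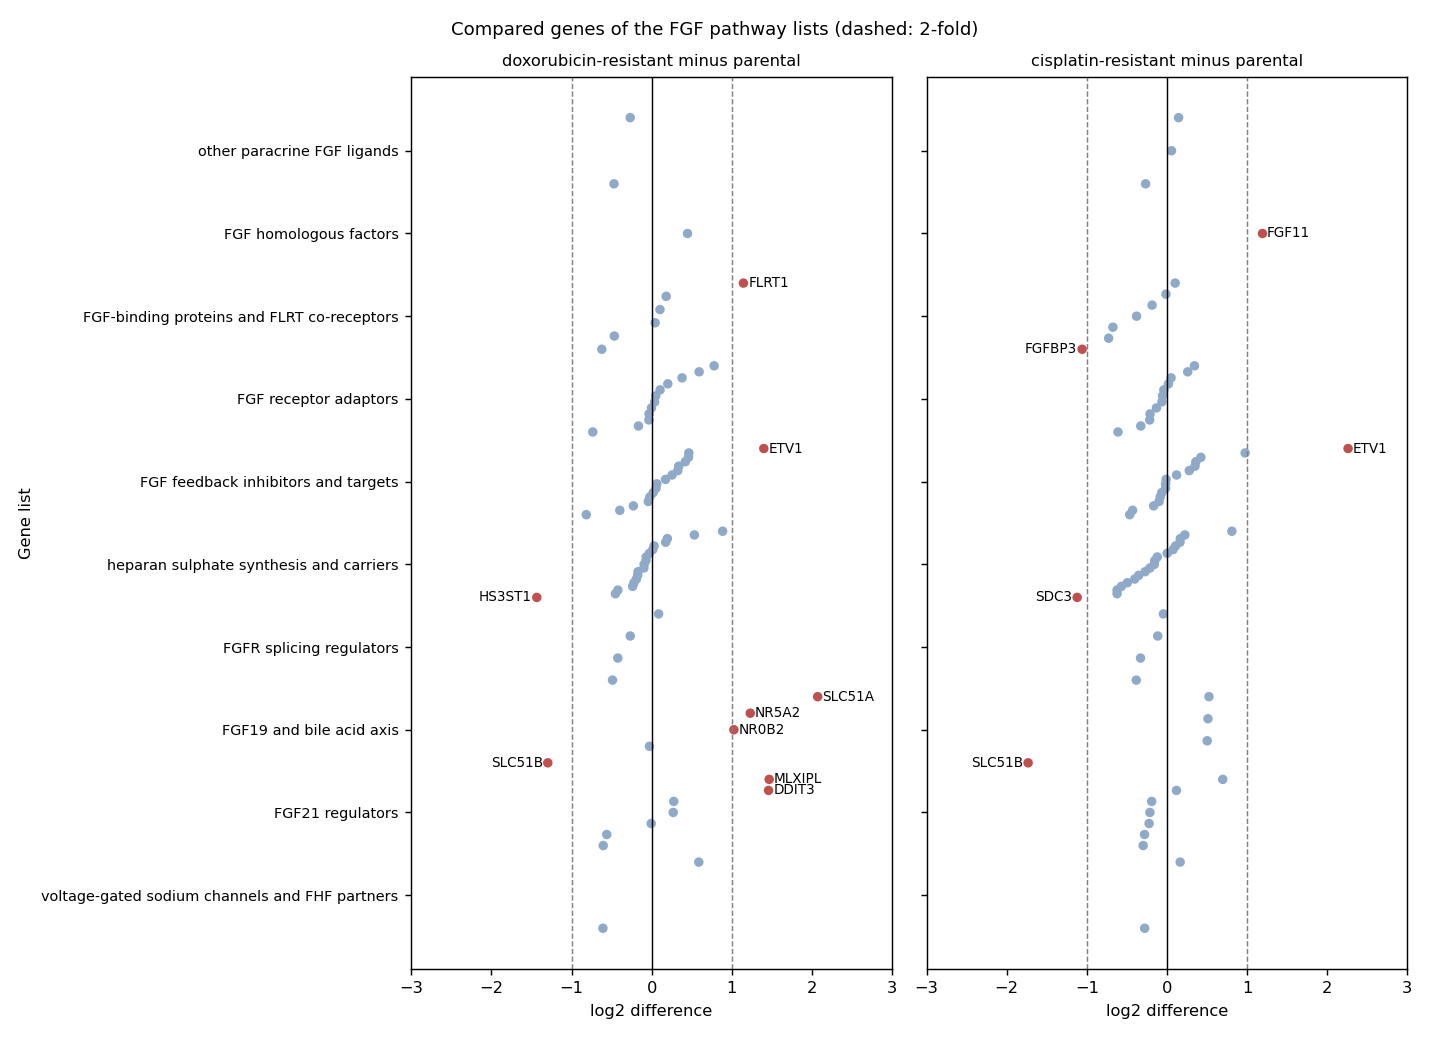
log2 difference from parental (horizontal axis) of each compared gene of the pathway lists (rows), in the doxorubicin-resistant (left) and cisplatin-resistant (right) array, with 1 point a gene and dashed lines at 2-fold. Called genes are red and named, and the receptor adaptors hold none in either panel.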

How the data were processed

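Total RNA of 3 lines was hybridised to 1 Affymetrix array each, per the labels. The authors deposited 1 linear intensity, or signal, for each probe set; the submitters' processing notes name MAS5 without a version. The mean of each array without its lowest and highest 2.0% of values was 500.1, the form that global scaling gives. Gene names came from the platform annotation, updated to RefSeq symbols (GRCh38.p14). Of 54675 probe sets, 41091 had 1 symbol, 1801 several, 11721 none and 62 were controls, and 41037 (99.9%) of the first matched RefSeq by Entrez identifier. Signals under 76.9 were raised to it, log2 was taken, and differences between arrays were called at 2-fold. For lists, the probe set of highest mean log2 signal stood for its gene. No test was possible with 1 array per group, and precision is limited by their number. The differencing and calling were tested on simulated arrays. Promoter windows were available for 8 of the 10 genes; others are not used here. Python 3.11.15, pandas 2.3.3 and NumPy 2.4.6 were used.

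The members and gene lists were chosen with earlier results of these data known. Named genes were all 10 members, up to 6 genes per list at 2-fold or more in any comparison, the 5 genes nearest to FGF13 in their differences, and the 5 compared genes on each side of FGF13 and FGF19. Genes given within 2-fold as examples of a list, and NUDT6, were picked after their values were seen. The alternatives tried were other floors, a pseudocount of 16 with no floor, other scalings, other thresholds, other ways to represent a gene and the subtraction of the median of 14 neighbours.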

Additional observations from a re-analysis of the deposited data

How the results depend on the processing

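No difference of a member that passed 2-fold changed sign under any alternative that gave it a value. The counts of called probe sets of the 10 genes, which were 2, 2 and 4 for the doxorubicin-resistant minus parental, cisplatin-resistant minus parental and doxorubicin-resistant minus cisplatin-resistant comparisons, became 0, 0 and 0 with the floor at the 75th percentile (439.7 signal units), and 4, 3 and 6 with it at the 25th percentile (19.4). They became 3, 4 and 5 at a 1.5-fold threshold and 1, 1 and 2 at 3-fold. The counts of called pathway genes, which were 9, 5 and 7, became 2, 1 and 2 with the floor at the 75th percentile, 16, 15 and 13 at the 25th, and 18, 10 and 11 with a pseudocount of 16 and no floor. They became 18, 13 and 16 at 1.5-fold, 1, 2 and 2 at 3-fold, and 6, 3 and 5 with the median over probe sets. Both scalings left all 6 counts as they were. With the neighbour median subtracted the pathway counts were 9, 5 and 6, but MLXIPL was lost (0.29 and 0.61 on the log2 scale in the doxorubicin-resistant minus parental and minus cisplatin-resistant comparisons), NR0B2 was lost in the second of these (0.96), SPRED3 was gained in the first (-1.02) and NR5A2 in the second (1.18). FGF2 in the doxorubicin-resistant against the cisplatin-resistant array lay between 1.61 and 1.90 on the log2 scale over the alternatives that gave it a value. No paired analysis was possible because each group held 1 array. Signal near the floor limits FGF2 in the cisplatin-resistant array and every FGF gene other than FGF2 and parental FGF13.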

Other observations

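FGF19 lies in a stretch of chromosome 11 that is often amplified in liver cancer together with CCND1, the cell cycle regulator cyclin D1. CCND1 read 2248 signal units in the doxorubicin-resistant array, 2133 in the cisplatin-resistant array and 2283 in the parental array, while FGF19 stayed under 76.9 on all 3. The 5 compared genes on each side of FGF19 had median log2 differences of -0.09 (doxorubicin-resistant) and -0.16 (cisplatin-resistant) from parental, and none was called by its brightest probe set. Among them MYEOV had 1862, 868 and 1026, 2.15-fold higher in the doxorubicin-resistant than in the cisplatin-resistant array. The death adaptor FADD, the actin-binding protein CTTN and PPFIA1 differed from parental by -0.42 to -0.15 in both sublines. FGF4 and LOC338694 were at most -0.27 and -0.15 in each. By their brightest probe sets TPCN2, LTO1 and ANO1 were above parental, at 0.69, 0.46 and at least 0.63 in the doxorubicin-resistant array. In the cisplatin-resistant array they were at 0.29, 0.36 and at least 0.05. The other LTO1 probe set was below parental, at -0.14 and -0.91 in the same order. The 3 other compared TPCN2 probe sets lay between 0.42 and 1.14 in the doxorubicin-resistant array, the highest past 2-fold. In the cisplatin-resistant array they lay between 0.02 and 0.71. The other ANO1 probe set was at least 0.67 in the cisplatin-resistant array and could not be compared in the doxorubicin-resistant array.

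The RefSeq window of FGF21 held 1 match to the amino acid response element TGATGNAA, in reverse orientation from position -54, a motif found in 3.62% of all windows. FGF21 had 49.4 in the doxorubicin-resistant, 27.02 in the cisplatin-resistant and 30.1 in the parental array, all under the floor, while DDIT3 was 2.75-fold above parental in the doxorubicin-resistant array. FGF11, by its brighter probe set, and FGF13, both FGF homologous factors, were on opposite sides of the floor on every array. The other FGF11 probe set was under the floor on all 3 arrays, as FGF13 was in both sublines. NUDT6 and FGF2, which overlap on opposite strands, had opposite extremes in the cisplatin-resistant array, and the second NUDT6 probe set differed from parental there by 0.44.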
